A study of Mus musculus with 8 samples.

Results

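H3K27me3 over 10 pluripotency factor genes was measured in primordial germ cells (PGCs) of mouse embryos, the cells that later form eggs and sperm. The genes were chosen by name from the 21352 genes of the files: Pou5f1, Nanog, Sox2, Klf2, Klf4, Klf5, Esrrb, Tfcp2l1, Lin28a and Zfp42. All 10 were found and all lie on autosomes, which hold 20368 of the listed genes.

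The assay was low-input CUT&RUN, in which an antibody guides a nuclease to its target and the released DNA is sequenced. The antibodies were against H3K27me3, the mark that Polycomb repressive complex 2 places on silent developmental genes, and IgG, whose reads show how much is cut without a target. H3K27me3 libraries came from females at E12.5 and E11.5, and IgG libraries from E11.5 males, E12.5 females and E13.5 females. Each of these 5 groups had 1 library with a file, made from sorted cells of pooled embryos of 1 sex.

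All embryos were B6 x Cast hybrids carrying Oct4-eGFP+/-, a germ cell reporter named after Pou5f1, and their genotype was Xist KO/+ in females and Xist KO/Y in males. The controls carried the same Xist knockout and reporter as the H3K27me3 samples, so neither is compared here. Neither the site of the reporter nor the Pou5f1 sequence it holds is stated in the labels, and reads of such sequence cannot be told apart from those of the native gene. In a bulk library, a low mark in all cells and a strong mark in some of them cannot be told apart either.

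The libraries held 5020062 and 2356356 autosomal reads with an allele in H3K27me3 E12.5 and E11.5. The IgG libraries of E11.5, E12.5 and E13.5 held 1357583, 1515532 and 5705401. A level is the number of reads of both alleles per 1000000 such autosomal reads of the library (RPM). Without a second library in any group there was no replicate check and no test between conditions. Intervals are exact 95% intervals of the read counts, and they cover counting error only.

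Pluripotency factors form the network that lets embryonic stem cells and the epiblast give rise to all tissues. Pou5f1 (Oct4) and Sox2 bind DNA as partners, and Nanog stabilises the network. Klf2, Klf4 and Klf5 are Krüppel-like zinc-finger activators, Esrrb is an orphan nuclear receptor and Tfcp2l1 a CP2-family factor downstream of LIF signalling. Lin28a is an RNA-binding protein that blocks let-7 maturation, and Zfp42 (Rex1) is a zinc-finger marker of naive stem cells. Mouse PGCs keep Pou5f1, Nanog and Sox2 active, while Klf4 is low in them. In somatic tissues many such genes become silent.

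The promoters of these genes differ in CpG dinucleotides, which are dense at many Polycomb targets, so sequences are shown for the genes at the ends of the H3K27me3 range and of the CpG range. Each is the 250 bases before a RefSeq start on GRCm38.p6, 5′ to 3′ on the gene's strand, with CpG in capitals. Esrrb, the gene with most H3K27me3 over IgG, has 2 listed starts. Zfp42 had the lowest mean log2 ratio to IgG over both stages, -1.34, Klf4 has most CpG and Nanog fewest, with 2 at its second start.
Esrrb, first start, chr12:86360867-86361116, + strand: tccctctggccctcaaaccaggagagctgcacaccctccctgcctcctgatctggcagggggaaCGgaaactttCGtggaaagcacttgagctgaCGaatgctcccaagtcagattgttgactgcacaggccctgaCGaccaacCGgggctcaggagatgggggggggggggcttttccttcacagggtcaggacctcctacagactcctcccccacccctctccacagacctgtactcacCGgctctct
Esrrb, second start, chr12:86421394-86421643, + strand: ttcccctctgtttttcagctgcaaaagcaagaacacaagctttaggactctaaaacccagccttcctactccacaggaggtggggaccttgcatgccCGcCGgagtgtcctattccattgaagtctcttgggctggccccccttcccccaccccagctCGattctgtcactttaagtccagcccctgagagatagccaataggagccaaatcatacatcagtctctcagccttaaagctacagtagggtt
Zfp42, chr8:43307010-43307259, - strand: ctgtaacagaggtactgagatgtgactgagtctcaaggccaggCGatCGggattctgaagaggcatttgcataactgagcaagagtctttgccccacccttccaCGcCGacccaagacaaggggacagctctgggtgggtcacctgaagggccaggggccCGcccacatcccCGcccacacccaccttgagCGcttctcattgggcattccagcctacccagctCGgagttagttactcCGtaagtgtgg
Klf4, chr4:55532476-55532725, - strand: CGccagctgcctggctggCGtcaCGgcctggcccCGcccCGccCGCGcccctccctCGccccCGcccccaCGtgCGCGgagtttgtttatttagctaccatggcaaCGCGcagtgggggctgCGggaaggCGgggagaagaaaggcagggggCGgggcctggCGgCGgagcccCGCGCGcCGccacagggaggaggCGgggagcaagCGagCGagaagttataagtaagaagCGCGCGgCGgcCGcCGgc
Nanog, first start, chr6:122707239-122707488, + strand: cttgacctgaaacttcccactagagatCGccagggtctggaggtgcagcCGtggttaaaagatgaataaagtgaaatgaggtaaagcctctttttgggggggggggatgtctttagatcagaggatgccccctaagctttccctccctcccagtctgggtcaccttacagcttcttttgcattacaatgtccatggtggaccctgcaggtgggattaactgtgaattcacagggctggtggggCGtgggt
The Esrrb windows held 6 and 3 CpG, Zfp42 9, Klf4 32 and the first Nanog window 3. Of 32851 RefSeq promoter windows, 49.6% had fewer CpG than the first Esrrb window, 59.7% fewer than Zfp42 and 95.4% fewer than Klf4. Klf2 had 29 CpG and Sox2 27, while Pou5f1 had 8 at its first start, Lin28a 7 and Tfcp2l1 16. The promoter table had windows for 9 of the 10 genes. The read counts cover whole genes and cannot be placed within these windows. Over 12985 autosomal genes with a window and enough reads at E12.5, the median log2 ratio of H3K27me3 over IgG was 0.32 with 0 to 4 CpG, -0.55 with 5 to 14 and -0.91 with 15 or more. Of these classes, 24.4%, 15.0% and 8.37% of genes were at least 2-fold higher. Dense CpG at the start alone thus did not go with a high H3K27me3 level over the gene in these libraries. Klf4, at 0.27, lay above the median of its class, and Zfp42, at -1.65, below. The Klf4 value rests on 21 H3K27me3 and 5 IgG reads, with a fold interval of 0.465 to 4.30, so its place in the class is uncertain.

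Of the 10 genes, Esrrb alone stood clearly above IgG, and its level was higher than in every IgG library at both stages. Tfcp2l1, Lin28a and Zfp42 lay below all 3 IgG libraries at both stages, with intervals that left out an equal level. Nanog and Klf5 also lay below, but with intervals against IgG of the same stage that took in an equal level, as did those of Pou5f1 and Klf4. Sox2 and Klf2 had almost no reads. Most autosomal genes with enough reads lay below IgG too. At E12.5, 36.9% of them had a lower log2 ratio to IgG E12.5 than Tfcp2l1 and 41.2% than Lin28a, against 2.63% for Zfp42. Against IgG of the same stage, 8 genes at E12.5 and 7 at E11.5 had the 20 reads in both libraries together that were required for a log2 ratio. The ratio carries a pseudocount of 1 RPM, which understates differences of sparsely read genes.

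At E12.5, 0 of the 8 genes were at least 2-fold higher than IgG and 1, Zfp42, at least 2-fold lower, against 15.2% and 29.5% of 16526 autosomal genes. The E11.5 comparison sets female cells against IgG from males, so sex and antibody cannot be told apart in it. At E11.5, Esrrb was at least 2-fold higher and Lin28a and Zfp42 lower among 7 genes, against 17.2% and 29.7% of 15050 autosomal genes. The median log2 ratio of the genes that passed was -0.37 at E12.5 and -0.80 at E11.5, beside -0.54 and -0.49 over all autosomal genes. Most autosomal genes thus lay below IgG on this scale.

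**Figure D1:**
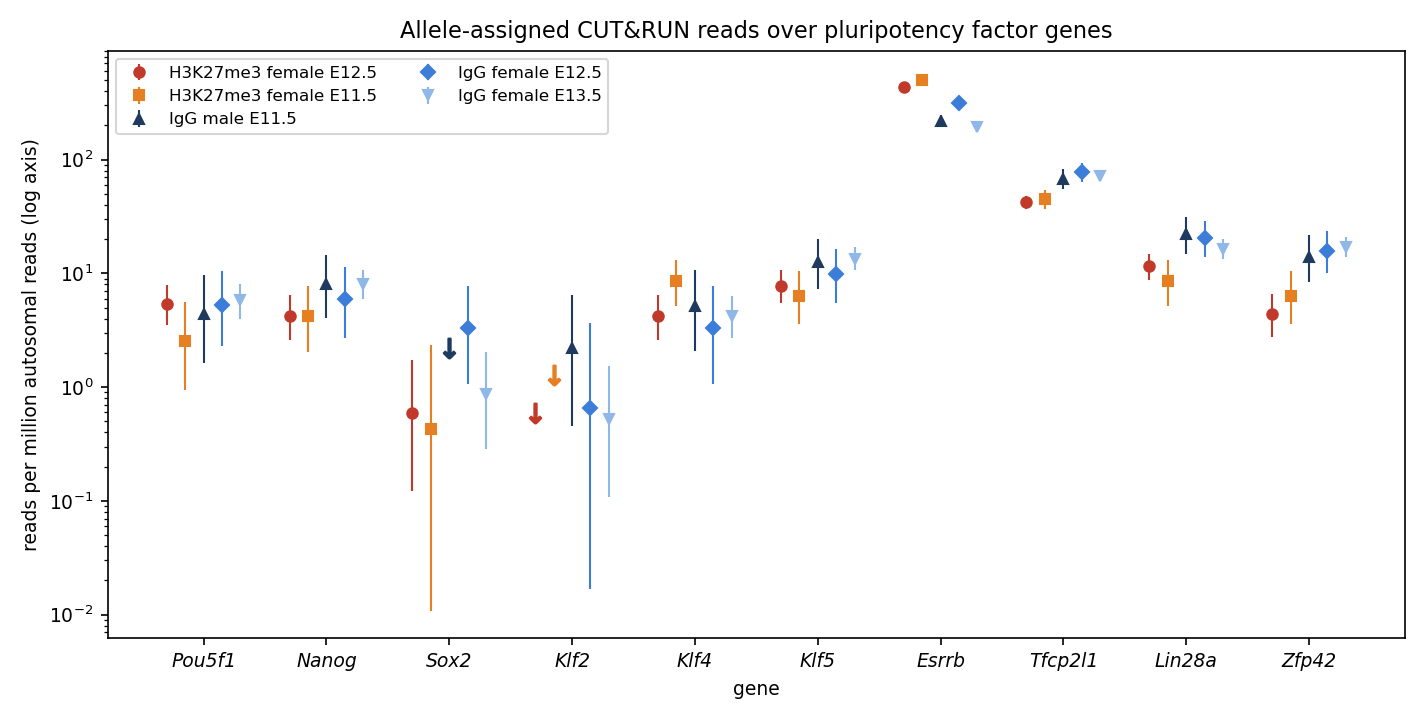
Levels of the 10 genes in each library, in RPM on a log axis, with exact 95% counting intervals. Arrows mark the limit of 3 counts where a library had 0 reads. The H3K27me3 points of Esrrb lie above its 3 IgG points, and those of Tfcp2l1, Lin28a and Zfp42 lie below theirs. Levels of different genes also depend on gene length and on variants between the strains.

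Esrrb lies on chromosome 12 from 86361117 to 86521628 (RefSeq, GRCm38.p6) and is the longest of the 10 genes. It had 2160 reads at E12.5 and 1172 at E11.5 in H3K27me3, and 298, 472 and 1111 in IgG E11.5, E12.5 and E13.5. The levels were 430.3 and 497 RPM in H3K27me3, against 219.5, 311 and 195 in IgG. Both H3K27me3 levels were above all 3 IgG levels, and IgG E12.5 was the highest of the controls.

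Over IgG of the same stage, the level of Esrrb was 1.38-fold at E12.5 (1.25 to 1.53) and 2.27-fold at E11.5 (1.99 to 2.58). Over IgG E13.5 it was 2.21-fold at E12.5 (2.05 to 2.38) and 2.55-fold at E11.5 (2.35 to 2.78). Whether Esrrb passed 2-fold at E12.5 thus depended on the control. By the log2 ratio with pseudocount over IgG E13.5, Esrrb alone of 8 genes was 2-fold higher and Zfp42 alone 2-fold lower at either stage, against 15.9% and 24.2% of autosomal genes at E12.5 and 16.8% and 27.2% at E11.5. With both H3K27me3 libraries summed over the 3 IgG libraries summed, an alternative added after seeing the data, the same pair passed, against 14.6% higher and 25.3% lower. At E12.5, 74.5% of autosomal genes had a lower ratio to IgG E12.5 and 86.1% a lower ratio to IgG E13.5. The IgG level of Esrrb was itself lower at E13.5, 0.625-fold that of E12.5 (0.561 to 0.698).

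IgG E12.5 also had higher depth-scaled levels than IgG E13.5 over most of the Hox genes, strong Polycomb targets, that had enough reads, with Hoxd3 (0.19) the other way. Their median log2 ratio of IgG E13.5 over IgG E12.5 was -0.47 over 15 genes with enough reads, and that of somatic gonad markers -0.48 over 13, against -0.12 over all autosomal genes. The part of this in the lower Esrrb ratio at E12.5 was not tested.

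Between both H3K27me3 libraries, Esrrb differed little. Its level at E12.5 was 0.865-fold that at E11.5 (0.805 to 0.930), a log2 ratio of -0.21 where the median of all autosomal genes was 0.01. The difference of both folds over IgG of the same stage, E12.5 minus E11.5, was -0.71 on the log2 scale by a log-linear model of the reads, which called 7.66% of autosomal genes lower at E12.5 and 6.51% higher.

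Tfcp2l1, on chromosome 1 from 118627923 to 118685168, was the other well-read gene. It had 42.0 and 44.6 RPM in H3K27me3 E12.5 and E11.5 (211 and 105 reads), against 67.8, 77.2 and 71.0 in IgG E11.5, E12.5 and E13.5 (92, 117 and 405 reads). Every H3K27me3 value was below every IgG value. The fold was 0.544 at E12.5 (0.432 to 0.688) and 0.658 at E11.5 (0.492 to 0.880), and 36.9% and 46.5% of autosomal genes had a lower log2 ratio. Tfcp2l1 thus lay below IgG and near the middle of all genes. At E11.5 the fold over IgG E11.5 was 0.995 on the first allele (0.637 to 1.58) and 0.469 on the second (0.313 to 0.698). IgG E11.5 itself had 33 and 59 reads on these alleles, and H3K27me3 E11.5 had 57 and 48. Over the deeper IgG E13.5 the folds of both alleles were close, 0.611 and 0.649 at E11.5 and 0.553 and 0.641 at E12.5. Over IgG E12.5 the E12.5 folds were 0.678 and 0.448.

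Esrrb and Tfcp2l1 share a place downstream of the core factors in stem cells and stood apart in these libraries. Per kilobase of gene, Esrrb had 2.68 RPM at E12.5 and 3.10 at E11.5, and Tfcp2l1 0.735 and 0.779. In IgG the same per-kilobase levels were 1.37, 1.94 and 1.21 for Esrrb and 1.18, 1.35 and 1.24 for Tfcp2l1 at E11.5, E12.5 and E13.5. The genes were thus much closer to each other in all 3 IgG libraries than in H3K27me3.

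Zfp42, on chromosome 8 from 43295067 to 43307009, had the lowest ratios to IgG at E12.5 among the 8 genes with enough reads. Its levels were 4.38 and 6.37 RPM in H3K27me3 E12.5 and E11.5 (22 and 15 reads), against 13.995, 15.8 and 17.2 in IgG E11.5, E12.5 and E13.5 (19, 24 and 98 reads). Both H3K27me3 values were below all 3 IgG values. The fold over IgG of the same stage was 0.277 at E12.5 (0.148 to 0.515) and 0.455 at E11.5 (0.215 to 0.945). Over IgG E13.5 it was 0.255 at E12.5 (0.153 to 0.408) and 0.371 at E11.5 (0.200 to 0.642).

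At E12.5, only 2.63% of autosomal genes had a lower ratio to IgG E12.5 than Zfp42, and 0.687% a lower ratio to IgG E13.5. At E11.5 these shares were 28.5% and 14.6%. In IgG E13.5 the gene was densely read, and 91.2% of autosomal genes had fewer reads per base there, against 22.0% in H3K27me3 E12.5.

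Lin28a, on chromosome 4 from 134003330 to 134019196, had 11.6 and 8.49 RPM in H3K27me3 E12.5 and E11.5 (58 and 20 reads), against 22.1, 20.5 and 16.5 in IgG E11.5, E12.5 and E13.5 (30, 31 and 94 reads). Its fold was 0.565 at E12.5 (0.359 to 0.904) and 0.384 at E11.5 (0.207 to 0.699). Of autosomal genes, 41.2% had a lower log2 ratio at E12.5 and 15.1% at E11.5. The intervals of both stages overlapped widely, so the crossing of the 2-fold line at E11.5 alone is no sign of a difference between stages.

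Among the core factors, Pou5f1 and Nanog had no excess of H3K27me3 over IgG. Pou5f1, on chromosome 17 from 35506032 to 35510777, had 5.38 and 2.55 RPM in H3K27me3 E12.5 and E11.5 (27 and 6 reads), against 4.42, 5.28 and 5.78 in IgG E11.5, E12.5 and E13.5 (6, 8 and 33 reads). The E12.5 value lay within the range of the IgG libraries and the E11.5 value below it. The fold at E12.5 was 1.02 (0.450 to 2.60) over IgG E12.5 and 0.930 (0.538 to 1.59) over IgG E13.5. At E11.5 it was 0.576 (0.154 to 2.16) over IgG E11.5.

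Nanog, on chromosome 6 from 122707489 to 122714633, had 4.18 and 4.24 RPM in H3K27me3 E12.5 and E11.5 (21 and 10 reads), against 8.10, 5.94 and 8.06 in IgG E11.5, E12.5 and E13.5 (11, 9 and 46 reads). Both H3K27me3 values were below all IgG values. The fold was 0.704 at E12.5 (0.309 to 1.75) and 0.524 at E11.5 (0.199 to 1.36). Over the deeper IgG E13.5 library the E12.5 fold was 0.519 (0.294 to 0.887).

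Sox2, on chromosome 3 from 34649995 to 34652461, was too sparsely read for a ratio. It had 3 and 1 reads in H3K27me3 E12.5 and E11.5, and 0, 5 and 5 in IgG E11.5, E12.5 and E13.5. The fold of 0.181 at E12.5 over IgG E12.5 (0.0281 to 0.931) rests on these 3 and 5 reads. With both H3K27me3 libraries summed, the level was 0.542 RPM, against 1.17 in the 3 IgG libraries summed, a ratio of 0.465 with a counting interval of 0.106 to 1.61. Sox2 lies within the long non-coding gene Sox2ot in RefSeq, which is not a row of the files, and how shared reads were assigned is not stated.

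The Klf genes were sparsely read. Klf4, on chromosome 4 from 55527137 to 55532475, had 4.18 and 8.49 RPM in H3K27me3 E12.5 and E11.5 (21 and 20 reads), against 5.16, 3.30 and 4.21 in IgG E11.5, E12.5 and E13.5 (7, 5 and 24 reads). The E11.5 value was above all IgG values and the E12.5 value among them. Its fold was 1.27 at E12.5 (0.465 to 4.30) and 1.65 at E11.5 (0.669 to 4.61), and 2.02 (1.06 to 3.81) for E11.5 over IgG E13.5.

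Klf5, on chromosome 14 from 99298691 to 99313412, had 7.77 and 6.37 RPM in H3K27me3 E12.5 and E11.5 (39 and 15 reads), against 12.52, 9.90 and 13.496 in IgG E11.5, E12.5 and E13.5 (17, 15 and 77 reads). Both H3K27me3 values were below all IgG values. The fold was 0.785 at E12.5 (0.423 to 1.53), 0.508 at E11.5 (0.236 to 1.08) and 0.576 (0.381 to 0.857) for E12.5 over IgG E13.5.

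Klf2, on chromosome 8 from 72319062 to 72321654, had 0 reads in both H3K27me3 libraries, which allows levels of up to 0.598 RPM at E12.5 and 1.27 at E11.5 by a limit of 3 counts, the limit also drawn for 0 reads in the plot of levels. The IgG libraries of E11.5, E12.5 and E13.5 had 3, 1 and 3 reads. With libraries summed as for Sox2, the interval of the ratio ran from 0 to 0.807.

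Set on the scale of strong Polycomb targets, none of the 10 genes had a fold near that of Hox genes. The median fold over IgG E13.5 was 12.8 at E12.5 over 32 Hox genes with enough reads and 13.46 at E11.5 over 31. Some Hox genes had few IgG reads and passed the read minimum through H3K27me3, so these medians lean toward high folds. The upper bounds of all 10 genes were below these medians, and that of Esrrb at E12.5 was 2.38. Over IgG of the same stage the Hox medians were 8.04 and 10.1, and the bounds of 9 genes were below them. Klf2 at E12.5 and Sox2 at E11.5, whose counts were too low to bound the ratio below these medians, were the exceptions. Apart from these exceptions, the genes other than Esrrb and Tfcp2l1, all sparsely read, could thus be told from the level of Hox genes. At E12.5 over IgG E12.5, their intervals all took in a 2-fold lower level. Those of Pou5f1, Klf4 and Klf2 also took in a 2-fold higher one. The upper bounds of Nanog (1.75), Klf5 (1.53), Sox2 (0.931), Lin28a (0.904) and Zfp42 (0.515) were below 2-fold higher.

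**Figure D2:**
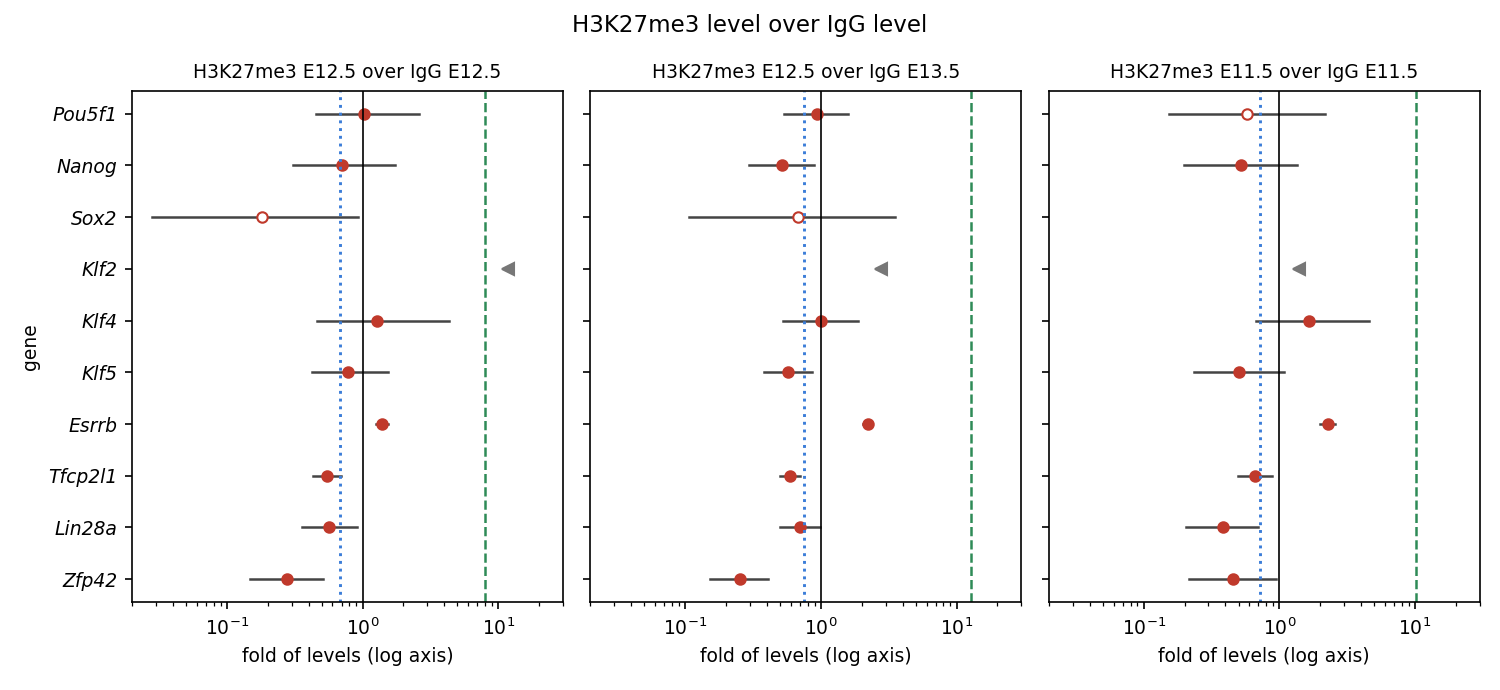
Fold of the H3K27me3 level over the IgG level for each gene on a log axis, with exact 95% counting intervals, for E12.5 over IgG E12.5, E12.5 over IgG E13.5 and E11.5 over IgG E11.5. Sox2 at E11.5 is not drawn, since its control had 0 reads. The dotted line is the median of all autosomal genes and the dashed line the median of Hox genes. Open circles are genes under 20 reads, and triangles are upper limits of a gene with 0 H3K27me3 reads. Esrrb lies right of 1 in all panels and Zfp42 left of 1, and the Hox line lies right of every filled circle.

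Between E12.5 and E11.5, none of the 8 genes with enough reads differed by 2-fold in H3K27me3. Over all 16526 autosomal genes tested, 0.756% were higher and 0.787% lower by that rule. Pou5f1 had a fold of 2.11 of E12.5 over E11.5 (0.854 to 6.26) before the pseudocount and a log2 ratio of 0.85 with it. Klf4 had the lowest log2 ratio, -0.87, and a fold of 0.493 (0.254 to 0.958). Only 1.29% of autosomal genes lay lower than Klf4 and 98.5% lower than Pou5f1. Both ranks rest on 41 and 33 reads. The other 6 log2 ratios ran from -0.45 for Zfp42 to 0.40 for Lin28a.

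The IgG libraries of E13.5 and E12.5, without the mark, also differed at none of the 8 genes by 2-fold, against 3.72% of autosomal genes higher and 5.62% lower. Esrrb, at -0.67, had the lowest log2 ratio and Klf5, at 0.41, the highest. The IgG libraries thus differed more at Esrrb than the H3K27me3 libraries did.

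Paralogs of the core factors, which act mainly in neural, endodermal and sense organ development, had far more H3K27me3. Among 12 Pou family paralogs, 7 were at least 2-fold above IgG at E12.5 and 0 below, against 15.2% and 29.5% of autosomal genes. Their median log2 ratio was 1.33. Pou3f2 (2.50), Pou3f3 (2.49) and Pou4f2 (2.10) were highest, all neural factors, with only 2, 3 and 3 reads in IgG E12.5. Among 12 Sox paralogs that passed of 16 on autosomes, 6 were above and 1 below, beside the same 15.2% and 29.5%, with a median of 1.23. Sox17, an endoderm factor (2.398), Sox14 (2.17) and Sox11 (2.13), neural factors, led.

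At E11.5, 7 of 11 Pou and 8 of 12 Sox paralogs were at least 2-fold above IgG, against 17.2% of autosomal genes. Raw reads show the contrast: Sox17 had 196 and 98 reads in H3K27me3 E12.5 and E11.5, and 11, 10 and 36 in IgG E11.5, E12.5 and E13.5. Genes with hardly any IgG reads passed the read minimum through H3K27me3, so these counts lean toward marked genes.

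Klf paralogs were spread much like all autosomal genes, of which 15.2% were above and 29.5% below 2-fold. Of 13, Klf9 (2.19), a hormone-responsive factor, and Klf14 (2.12) were above 2-fold at E12.5, 4 were below, and Klf15, the next highest, had 0.06. Paralogs of Esrrb, Tfcp2l1, Lin28a and Zfp42 had 0 of 9 above and 3 below. Grhl2, an epithelial factor, was highest at 0.43, followed by Esrrg at 0.06 and Tfcp2 at -0.41. Esrra, a relative of Esrrb that acts in energy metabolism, was at -1.48 and Lin28b at -0.83. Esrrb, at 0.47, was thus above every one of these relatives at E12.5 on this scale, and at 1.18 above every one at E11.5. At E12.5 its gap to Grhl2 was small beside the counting interval of the Esrrb fold, 1.25 to 1.53, and was not tested.

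**Figure D3:**
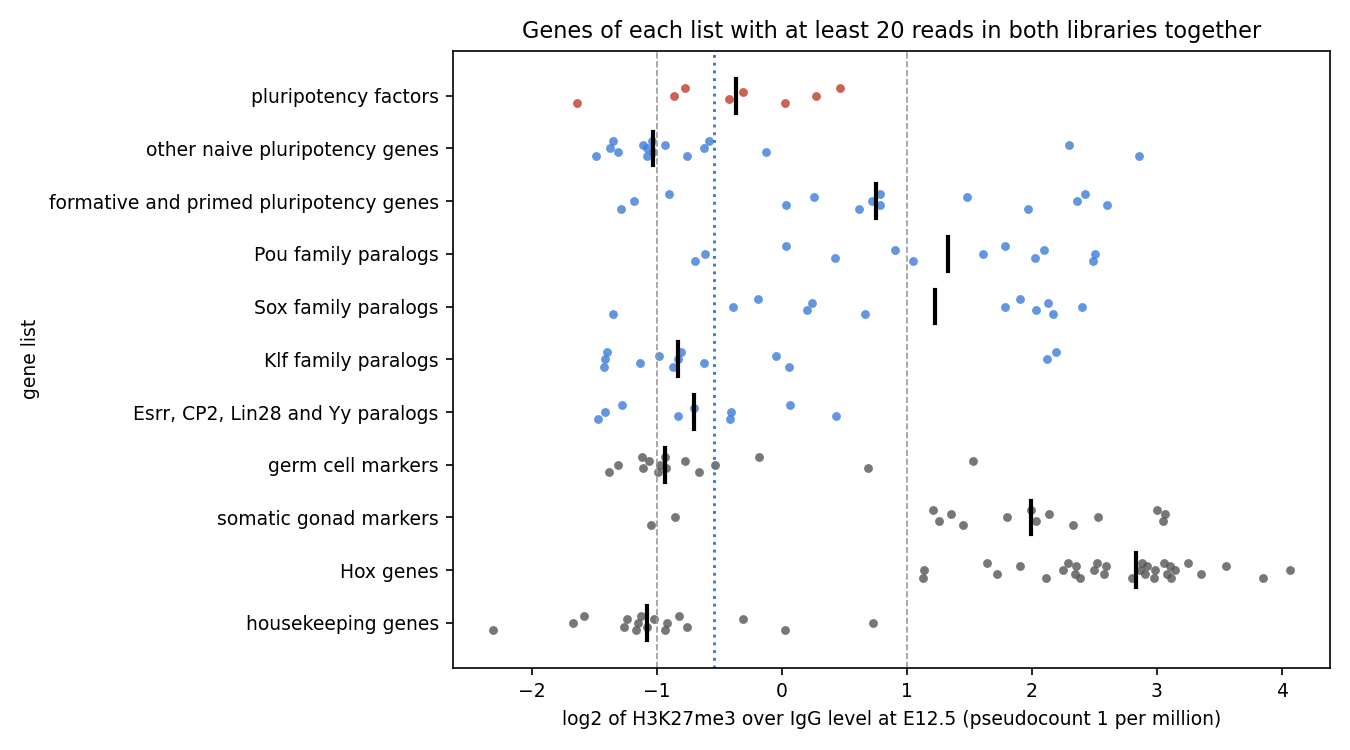
Log2 ratio of the H3K27me3 over the IgG level at E12.5 for the genes of each list with at least 20 reads in both libraries together. Points are genes, black bars list medians, the dotted line the median of all autosomal genes and dashed lines 2-fold. Hox genes and most somatic gonad markers lie right of the upper 2-fold line, and the pluripotency factors lie left of it.

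Other genes of naive pluripotency were mostly below IgG. Of 16 that passed, 2 were at least 2-fold above IgG at E12.5 and 9 below, against 15.2% and 29.5% of autosomal genes. The median log2 ratio of the 16 was -1.04, beside -0.54 over all autosomal genes. The pair above was Tbx3, a T-box factor also used in limb and heart (2.86), and Fgf4, a growth factor (2.30). Tcl1, an Akt coactivator (-1.49), and Dppa2, an epigenetic priming factor (-1.38), were lowest. At E11.5 the counts were 2 above and 7 below of 14, against 17.2% and 29.7% of autosomal genes. Fgf4 had 524 and 349 reads in H3K27me3 E12.5 and E11.5, and 16, 31 and 67 in IgG E11.5, E12.5 and E13.5.

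Genes of formative and primed pluripotency, which lead into germ layer formation, more often lay above IgG. At E12.5, 5 of 14 were above 2-fold and 2 below, with a median log2 ratio of 0.75, against 15.2% and 29.5% of autosomal genes. At E11.5, over IgG from males, the counts were 7 and 0 of 12, with 1.78, against 17.2% and 29.7%. Some passed the read minimum through H3K27me3, such as Zic5 with 55 H3K27me3 and 2 IgG reads at E11.5, so these counts lean toward marked genes. Eomes (2.60) and Otx2 (2.42), regulators of mesendoderm and of the anterior epiblast, were highest at E12.5. Lef1, a Wnt effector (-1.29), and Nodal, a TGF-beta ligand (-1.18), were lowest. Among genes of LIF, BMP and Wnt signalling, 3 of 14 were above and 3 below at E12.5, beside the same 15.2% and 29.5%. Socs3, the feedback inhibitor of STAT3 (1.90), and Bmp4 (1.34) were highest, and Il6st, the LIF coreceptor (-1.46), and Axin2, a Wnt feedback gene (-1.27), lowest.

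Markers of germ cells and of the somatic gonad were also read in H3K27me3, which alone cannot show which cells were sorted. Of 15 germ cell markers, 1 was at least 2-fold above IgG at E12.5 and 5 below, shares not far from the 15.2% and 29.5% of all autosomal genes, with Nanos3, a germ cell survival factor, at -1.39 and Prdm14 at -1.31. The markers that were highest were Stra8, the meiotic entry gene (1.53), and Nanos2, a male germ cell gene (0.69). Of 15 somatic gonad markers, 13 were above, led by Nr2f2 (3.06) and Tcf21 (3.05), with Dmrt1 (-1.05) and Cbx2 (-0.86) lowest. Some passed the read minimum through H3K27me3, such as Tcf21 with 228 H3K27me3 and 7 IgG reads at E12.5. The count of somatic gonad markers thus leans toward marked genes. Of 12 blood and endothelial markers, 3 were above and 1 below, with Tal1 (2.76) and Runx1 (1.35) highest and Pecam1 (-1.27) and Gata2 (-0.61) lowest. No RNA was measured, so these values describe the mark and not expression. Of 17 housekeeping genes, 0 were above and 10 below, with a median of -1.08.

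The neighbours of the pluripotency genes followed no single pattern. Of 40 neighbours, the 2 nearest listed genes on each side, 32 had enough reads at E12.5. Of these, 4 were above 2-fold and 8 below, shares near the 15.2% and 29.5% of all autosomal genes. The median log2 ratio was -0.78, beside -0.54 over all autosomal genes. Next to Zfp42, Adam26a (1.48) and Adam26b (1.06), testis-expressed protease genes, were above IgG E12.5, in which each had 4 reads, but had -0.17 (Adam26b) and 0.78 (Adam26a) over IgG E13.5. Triml2 on the other side had -0.83. Next to Pou5f1, H2-Q7 (2.62), a gene of a family of near-identical histocompatibility copies whose reads are uncertain, was above, and Tcf19 (-1.31) and Cchcr1 (-1.71) were below. Klf5 had Prr30 (1.02) on one side and Pibf1 (-1.10) on the other. Around Esrrb, Ift43 (-0.60), Gpatch2l (-0.87), Vash1 (0.07) and Angel1 (-0.76) were below Esrrb itself at E12.5 over IgG E12.5. Over IgG E13.5, Vash1 (1.30) stood above Esrrb (1.14) at E12.5, and at E11.5 over IgG E11.5 Vash1 (1.01) was also past 2-fold.

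The genes with the profile most like that of Esrrb over the 5 libraries were Snhg11, Jph2 and Mgat3. Their distances to it were 0.05, 0.06 and 0.09 in centred log2 levels, among 14604 autosomal genes with at least 100 reads in all. Jph2 had 188 and 216 RPM in H3K27me3 E12.5 and E11.5, against 98.0, 131 and 85.2 in IgG E11.5, E12.5 and E13.5. Nearest to Zfp42 were Tfrc, Gcc2 and Vti1b, at 0.14, 0.14 and 0.17.

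Reads on each allele were compared as the share of the second allele, since the files do not say which allele is B6 and which Cast. Among the pluripotency genes with at least 10 reads in a library, Esrrb was the only one called as departing from the library's autosomal share. It had 43.3% of 2160 reads on the second allele at E12.5 (41.2 to 45.4), where autosomes stood at 50.9%, and 47.3% of 1172 at E11.5 (44.4 to 50.2), where autosomes stood at 51.6%. By exact binomial test with Benjamini-Hochberg adjustment over all autosomal genes, the adjusted p was 3.32e-11 at E12.5 and 0.0300 at E11.5. Toward the first allele, the test called 7.98% of autosomal genes at E12.5 and 4.98% at E11.5, so such a departure was not rare. Toward the second allele it called 9.48% and 6.69%. In IgG, Esrrb had 48.7%, 49.4% and 50.05% at E11.5, E12.5 and E13.5, and adjusted p values by the same exact binomial test of 0.949, 0.948 and 0.817. The IgG libraries called 0.456%, 0.28% and 2.03% of autosomal genes toward the first allele and 3.21%, 3.19% and 5.84% toward the second.

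Set against IgG, the Esrrb share at E12.5 differed by -6.08 points from IgG E12.5 (Fisher's exact test, adjusted p = 0.260) and by -6.76 points from IgG E13.5 (adjusted p = 0.00646). IgG E13.5 was added as a control for shares after seeing the data. It called 3.31% of autosomal genes lower and 2.81% higher, and IgG E12.5 called 1.31% lower and 1.04% higher. At E11.5, none of the genes with 10 reads in both libraries was called against IgG E11.5 or against IgG E13.5. Pou5f1, Sox2 and Klf2 had too few reads for either test, and Klf4 for the test against IgG E11.5. Of autosomal genes, 0.853% were called lower and 1.32% higher against IgG E11.5, and 1.84% lower and 2.29% higher against IgG E13.5. These tests compare libraries, not conditions. Between H3K27me3 E12.5 and E11.5 the share of Esrrb differed by -3.98 points (Fisher's exact test, adjusted p = 0.746), where 0.379% of autosomal genes were called lower and 0.15% higher.

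Both alleles of Esrrb were above IgG E13.5. First-allele reads stood at 244.0 RPM at E12.5 and 262 at E11.5, against 97.3 in IgG E13.5, a fold of 2.51 (2.27 to 2.78) and 2.70 (2.4002 to 3.03). Second-allele reads stood at 186 and 235, against 97.5, a fold of 1.91 (1.72 to 2.13) and 2.41 (2.14 to 2.72). Against IgG E12.5, the E12.5 folds were 1.55 (1.35 to 1.78) on the first allele and 1.21 (1.05 to 1.404) on the second.

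**Figure D4:**
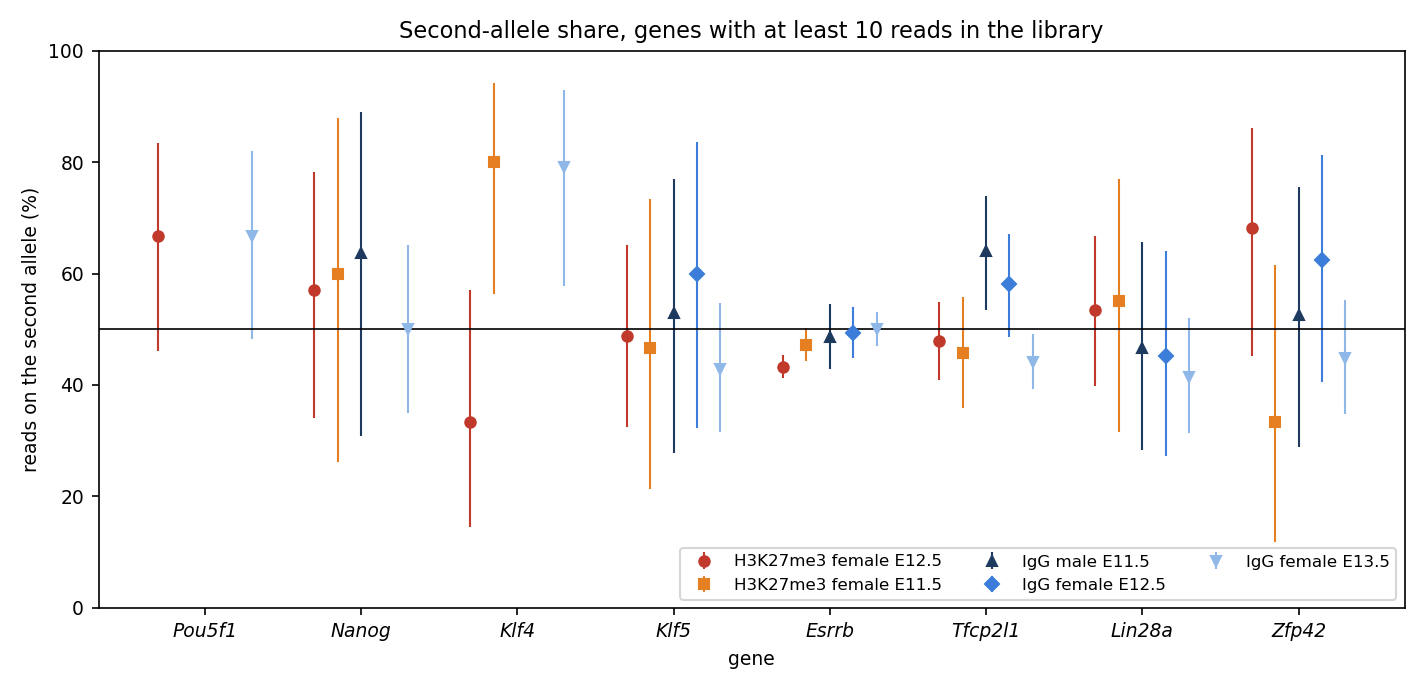
Share of reads on the second allele for each gene with at least 10 reads in a library, in percent, with exact Clopper-Pearson 95% intervals. The horizontal line is 50%. The intervals of Esrrb are narrow and its H3K27me3 point at E12.5 lies below the line, at 43.3%, while most other intervals span it.

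The other genes had no share that passed the binomial test in any library where they had the 10 reads needed. Sox2 and Klf2 had too few reads in every library. Tfcp2l1 had 47.9% and 45.7% in H3K27me3 E12.5 and E11.5, and 64.1%, 58.1% and 44.2% in IgG E11.5, E12.5 and E13.5, so that its IgG libraries differed among themselves. Klf4 had 33.3% of 21 reads at E12.5 and 80.0% of 20 at E11.5 in H3K27me3, and 79.2% of 24 in IgG E13.5. The stage difference of Klf4 had an adjusted p of 0.341 by Fisher's exact test, and the E12.5 difference from IgG E13.5 one of 0.0457. Pou5f1 had 66.7% of 27 reads in H3K27me3 E12.5 and 66.7% of 33 in IgG E13.5 (exact binomial test, adjusted p = 0.363 and 0.413). Zfp42 had 68.2% of 22 and 33.3% of 15 reads at E12.5 and E11.5, with an adjusted p of 0.829 between them by Fisher's exact test. Nanog, Klf5 and Lin28a had shares between 46.7% and 60.0% in H3K27me3. At the 10 to 58 reads behind these shares in H3K27me3, only large departures from an even share could be seen.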

How the data were processed

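Per the labels, CUT&RUN libraries were made from sorted PGCs. The labels list 8 samples, of which 5 had a file and were used. The other 3 were not analysed here. The authors deposited, per gene, raw read counts on 2 alleles, the second-allele fraction (which equals the second count over both) and a gene length in bases, another column of the deposited files. The submitters' processing notes name Bowtie2 2.4.2, SAMtools 1.11, GATK and featureCounts, and mm10. How duplicates were handled and alleles assigned is not stated there. Only reads over a strain variant have an allele, so gene levels depend on variant density.

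Levels were scaled to reads of chromosomes 1 to 19. Ratios used a pseudocount of 1 RPM and at least 20 reads in the pair, and a difference of 2-fold was the threshold. Folds printed with an interval are without pseudocount, with the exact conditional binomial interval. Shares needed 10 reads and were tested by exact binomial and Fisher's exact tests, two-sided, adjusted over all autosomal genes tested (threshold 0.05). A Hox gene with 0 control reads was given 3. Positions and promoters are RefSeq GRCm38.p6, the assembly that mm10 names, and all 10 genes matched by symbol. Scripts ran in Python 3.11.15 with SciPy 1.17.1 and were tested on simulated data. The 10 genes and the lists were chosen with earlier results of these data known. All 10 genes are named. In other lists the 2 highest and 2 lowest log2 ratios at E12.5 are named, in paralog lists the 3 highest, and any other gene was chosen after its values were seen.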

Additional observations from a re-analysis of the deposited data

Results flagged for a closer look

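Esrrb was singled out because its H3K27me3 level over IgG of the same stage differed between stages. The log2 fold at E12.5 minus that at E11.5 was -0.71 (SE 0.12), with an adjusted p of 1.09e-07 by the Wald test of a log-linear model of the reads, which was added after seeing the data and compares 4 libraries, not the stages. That model called 7.66% of 13159 autosomal genes lower at E12.5 and 6.51% higher. The IgG level of Esrrb was 311 RPM at E12.5 and 219.5 at E11.5, and the H3K27me3 level 430.3 and 497. The E11.5 control came from males. The other 4 genes that could be tested, Klf5, Tfcp2l1, Lin28a and Zfp42, had adjusted p values between 0.535 and 0.611 in the same model. Their log2 differences were 0.63 (SE 0.67), -0.27 (SE 0.26), 0.56 (SE 0.53) and -0.72 (SE 0.66). That of Zfp42 was thus as large as that of Esrrb, on far fewer reads, so a difference of this size is not shown to be particular to Esrrb.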

How the results depend on the processing

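No paired analysis was possible because each group had 1 library with a file, and no replicate could be left out. Over 198 values of single genes under the alternatives, 186 stayed within the counting interval of the main value and 12 did not. Intervals of sparsely read genes are wide, and a changed read minimum leaves a ratio as it was, so staying within says little. Of the 198 values, 12 had the other sign, none of them for a ratio called in the main setting. Over its alternatives, the log2 ratio of Esrrb ran from 0.28 to 1.14 at E12.5 and from 1.111 to 1.66 at E11.5, and that of Zfp42 from -1.76 to -1.10 and from -1.30 to -0.54. At E12.5 over IgG, the number of genes above 2-fold was 0 and became 1, Esrrb, with centring on the autosomal median, with IgG E13.5 as control, and with both H3K27me3 libraries summed over 3 IgG libraries. The number below was 1 and became 2 without a read minimum, 0 at a minimum of 50 reads, 2 on second-allele reads and 3 at 1.5-fold. At E11.5, the number above was 1 and became 2 with centring or at 1.5-fold. The number below was 2 and became 1 with a pseudocount of 5, a minimum of 50 reads, first-allele reads, IgG E13.5 or both libraries summed, 0 with centring, 3 without a read minimum and 5 at 1.5-fold. Between stages, 0 genes were higher and 0 lower, and 1 and 1 on second-allele reads or at 1.5-fold. Against an expected share of 50%, the share of Esrrb at E11.5 was no longer called (0 genes in place of 1). Against IgG E13.5 in place of IgG E12.5, 2 genes differed in share at E12.5, Esrrb and Klf4, in place of 0. Depth limits Sox2, Klf2, Pou5f1, Nanog and the other Klf genes, and Lin28a and Zfp42 too. The intervals of all these genes span about 2-fold or more.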
